A study of Mus musculus with 10 samples.

Results

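The 10 genes described here encode subunits of voltage-gated calcium channels: the pore-forming α1 subunits Cacna1a, Cacna1c, Cacna1d, Cacna1e and Cacna1h, the α2δ subunits Cacna2d1 and Cacna2d2, and the β subunits Cacnb1, Cacnb2 and Cacnb3. They were taken by gene symbol from the 47340 genes of a table of FPKM (fragments per kilobase of transcript, scaled to the size of the library), and each symbol named 1 gene. The table holds pancreatic islet mRNA of 10 male mice, 12 wk old and fed chow, with 1 library per mouse. The comparison asks how islet transcripts differ when β cells lack FIT2 (gene Fitm2), a protein of the endoplasmic reticulum with a role in making lipid droplets. The 5 floxed control mice (FL) carry Fitm2 fl/fl alleles. Their titles call them Flox while their genotype label reads wild type. The 5 βFIT2KO mice (KO) carry the same floxed alleles and a Cre recombinase driven by the rat insulin promoter, which is meant to cut Fitm2 in β cells and to leave it whole in the other cells of the islet. All islets recovered overnight in complete CMRL medium before RNA was taken. No mouse with Cre alone was among the 10, so carrying Cre and losing Fitm2 cannot be told apart.

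When glucose is metabolised in a β cell, closure of ATP-sensitive potassium channels depolarises the membrane, voltage-gated calcium channels open, and the calcium that enters triggers the fusion of insulin granules. Each high-voltage-activated channel is built on an α1 subunit, which holds the pore and the voltage sensor, together with a cytosolic β subunit and an α2δ subunit outside the membrane. The β and α2δ subunits bring the pore to the surface and tune how it opens. T-type pores, which open at weaker depolarisation, can work without them.

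Of the 10 genes, 8 averaged 1 FPKM or more in either group and were tested with limma on log2(FPKM + 1). At a Benjamini-Hochberg adjusted p of at most 0.05 over all 13065 genes tested, 4 of the 8 were lower in KO: Cacna1c, Cacna1d, Cacna2d1 and Cacnb2. None of the 8 was higher, by limma at this threshold or at an unadjusted p of 0.05. Of all genes tested, 16.5% were lower and 9.05% were higher. The median log2 fold change was −0.28 over the 8 subunits and −0.06 over all genes tested. The FL and KO values of 3 subunits (Cacna1c, Cacna2d1 and Cacnb2) did not overlap, with KO lower, as was so for 12.5% of all genes tested (19.1% did not overlap in either direction). No subunit passed when a change of at least 1.5-fold was required as well, as 4.89% of genes tested did. Cacna1c and Cacna2d1 are among the genes the study chose to display from these same libraries, and Cacna1d is in its list of lower genes, so their direction is not independent evidence. In islet RNA, fewer cells of a type and less RNA per cell cannot be told apart.

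Fitm2, the targeted gene, had FPKM of 16.9, 30.5, 16.5, 37.1 and 15.5 in FL and 4.56, 4.30, 7.75, 9.13 and 8.998 in KO (log2 fold change −1.58 ± 0.28 (SE), limma adjusted p = 0.00228). The groups did not overlap. The spacing of low FPKM values, which gives the worth of 1 read, places the libraries between 22400000 and 53800000 reads on the scale of the table, with FL replicate 1 the lowest and FL replicate 5 the highest. Over all genes, 2150 were lower and 1183 higher in KO, and after rescaling by median ratio 1685 were lower and 1547 higher. The same 4 subunit calls stood under that rescaling.

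The L-type pores, which carry much of the calcium current of β cells, were both lower in KO. Cacna1d, which encodes Cav1.3, lies on chromosome 14 from 30039939 to 30491455 (GRCm38, minus strand). Its FPKM were 14.0, 16.1, 16.4, 15.2 and 16.6 in FL and 12.2, 12.4, 14.96, 12.2 and 11.2 in KO. In 4 KO mice it was below every FL mouse, and KO replicate 3 lay within the FL range. The mean fell by 19.7%, from 15.7 ± 1.09 to 12.6 ± 1.40 FPKM (SD, n = 5 each). The log2 fold change was −0.30 ± 0.07 (SE, limma adjusted p = 0.0142). Cacna1c, which encodes Cav1.2, lies on chromosome 6 from 118587240 to 119196418 (minus strand). Its FPKM were 10.4, 10.9, 11.9, 11.1 and 11.8 in FL and 9.21, 8.98, 9.42, 8.88 and 9.17 in KO. No KO mouse reached the lowest FL mouse. The mean fell by 18.7%, from 11.2 ± 0.633 to 9.13 ± 0.211 FPKM (SD, n = 5 each), with a log2 fold change of −0.27 ± 0.05 (SE, limma adjusted p = 0.00203).

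Cacna1a, the pore of P/Q-type channels, lies on chromosome 8 from 84388440 to 84640246 (plus strand). Its FPKM were 16.6, 17.3, 27.0, 17.9 and 23.0 in FL and 14.8, 16.9, 16.7, 14.6 and 15.9 in KO. FL replicates 3 and 5 stood above the other 8 mice, and 3 KO mice were below every FL mouse. Its FL and KO means were 20.4 ± 4.49 and 15.8 ± 1.05 FPKM (SD, n = 5 each). Its log2 fold change of −0.33 ± 0.12 (SE) was larger than those of the L-type pores but did not pass (limma adjusted p = 0.073). It passed in 2 of 22 other settings, without FL replicate 1 (limma adjusted p = 0.0419) and with limma sample weights (limma adjusted p = 0.0216), and not in the other 20. Without FL replicate 3 the log2 fold change was −0.22 (limma adjusted p = 0.121), and without FL replicate 5 it was −0.28 (limma adjusted p = 0.154).

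Cacna1h, a T-type pore, lies on chromosome 17 from 25374285 to 25433783 (minus strand) and was much lower in level. Its FPKM were 1.97, 0.980, 1.11, 1.49 and 1.81 in FL and 1.41, 1.51, 2.82, 1.49 and 1.15 in KO. The groups overlapped, and KO replicate 3 stood above the other 9 mice. The log2 fold change was 0.10 ± 0.17 (SE, limma adjusted p = 0.698), and −0.03 without KO replicate 3. Cacna1e, the R-type pore on chromosome 1 from 154390731 to 154884501 (minus strand), ranged from 0.0028 to 0.0132 FPKM over the 10 mice. This is worth between 1.91 and 16.2 reads a library if its reads spread over all of its annotated exons, and it was not tested.

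In both groups the order of the 5 listed pores by mean FPKM was Cacna1a, Cacna1d, Cacna1c, Cacna1h and Cacna1e. The ranges of Cacna1a and Cacna1d overlapped, although Cacna1a was the higher in each of the 5 mice of either group. No other neighbours in that order overlapped. Cacna1b, a further pore outside these 5, averaged 4.36 FPKM in FL and 4.58 FPKM in KO, between Cacna1c and Cacna1h. The summed level of the 5 listed pores fell by 19.6%, from 48.7 ± 5.8 to 39.2 ± 2.84 FPKM (SD, n = 5 each). This is a description with no test.

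Cacna2d1 encodes the α2δ-1 subunit, the binding site of gabapentin, and lies on chromosome 5 from 15934691 to 16374511 (plus strand). It had the largest fall of the 8 subunits tested. Its FPKM were 55.8, 60.9, 56.8, 64.5 and 58.2 in FL and 44.9, 41.7, 46.8, 45.8 and 37.0 in KO. The highest KO mouse, at 46.8 FPKM, was well under the lowest FL mouse, at 55.8 FPKM. The mean fell by 27.0%, from 59.2 ± 3.50 to 43.2 ± 3.96 FPKM (SD, n = 5 each). The log2 fold change was −0.45 ± 0.07 (SE, limma adjusted p = 0.000921). Cacna2d2, on chromosome 9 from 107399612 to 107529343 (plus strand), encodes α2δ-2 and stayed under the limit for testing. Its FPKM were 1.19, 0.598, 0.505, 0.320 and 0.825 in FL and 0.474, 0.371, 0.441, 0.450 and 0.439 in KO. FL replicate 4 lay below the narrow KO range, and the other FL mice lay above it. The means were 0.688 FPKM in FL and 0.435 FPKM in KO. Of the summed level of Cacna2d1 and Cacna2d2, Cacna2d1 made up 98.8% in FL and 99.0% in KO. That sum therefore followed it, at 59.9 ± 3.25 and 43.7 ± 3.97 FPKM (SD, n = 5 each). It leaves out Cacna2d3, at means of 0.379 FPKM in FL and 0.413 FPKM in KO, and Cacna2d4, at 1.23 and 1.47 FPKM.

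Among the β subunits, Cacnb2 was lower in KO and the more abundant Cacnb3 did not pass. Cacnb2 lies on chromosome 2 from 14603088 to 14987908 (plus strand). Its FPKM were 20.8, 21.3, 20.3, 21.1 and 17.5 in FL and 16.6, 16.1, 16.0, 15.5 and 13.9 in KO. The groups did not overlap, although FL replicate 5 lay closer to the highest KO mouse than to the other FL mice. The mean fell by 22.6%, from 20.2 ± 1.56 to 15.6 ± 1.02 FPKM (SD, n = 5 each). The log2 fold change was −0.35 ± 0.06 (SE, limma adjusted p = 0.00288).

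Cacnb3, on chromosome 15 from 98630840 to 98644529 (plus strand), was the highest β subunit in every mouse. Its FPKM were 52.9, 47.4, 56.1, 53.0 and 58.3 in FL and 49.3, 59.4, 45.9, 45.2 and 46.2 in KO. Of the KO mice, 3 were below every FL mouse and KO replicate 2 was above every FL mouse. The log2 fold change was −0.12 ± 0.08 (SE, limma adjusted p = 0.296). Without KO replicate 2 it was −0.19 (limma adjusted p = 0.0434), so that 1 library decided this call. Cacnb1, on chromosome 11 from 98001508 to 98023034 (minus strand), had FPKM of 4.43, 3.60, 4.23, 3.80 and 4.68 in FL and 3.99, 4.97, 4.20, 4.37 and 4.81 in KO. The groups overlapped (log2 fold change 0.09 ± 0.08 (SE), limma adjusted p = 0.435). The order Cacnb3, Cacnb2, Cacnb1 held in both groups without overlap. The summed level of these 3 was 77.9 ± 3.34 FPKM in FL against 69.3 ± 6.56 FPKM in KO (SD, n = 5 each).

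**Figure D1:**
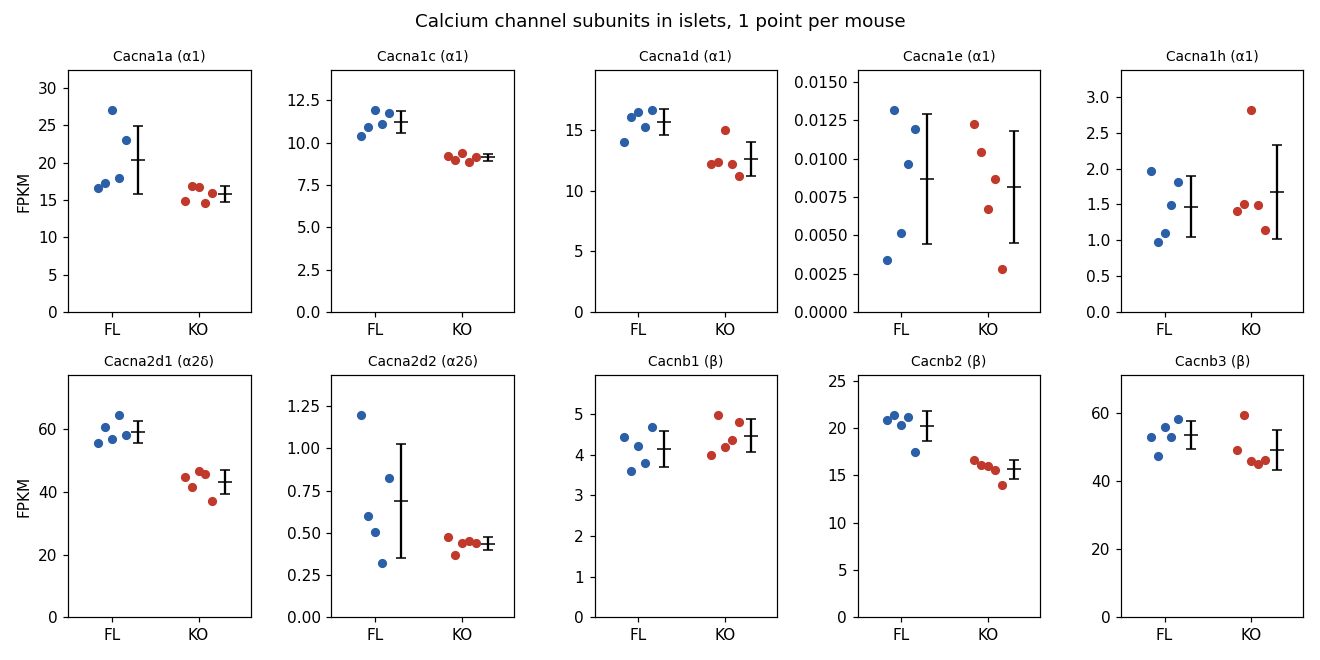
FPKM of the 10 subunits, with 1 point per mouse for FL (blue) and KO (red) and the mean with SD in black. Every vertical axis starts at 0 and has its own range. The FL and KO points of Cacna1c, Cacna2d1 and Cacnb2 do not overlap, while KO replicate 3 of Cacna1d, at 14.96 FPKM, lies among the FL mice.

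The make-up of each class was then compared, since a share within a library does not change when all its values are multiplied by the same factor. Each sum covers only the listed members of its class. Further subunits are left out, among them Cacna1b, at means of 4.36 FPKM in FL and 4.58 FPKM in KO. Of the summed level of the 5 listed α1 members, Cacna1a took 41.4% ± 4.1 in FL and 40.4% ± 2.03 in KO (SD, n = 5 each). The L-type pores together took 55.5% ± 3.7 and 55.4% ± 1.38, with Cacna1d at 32.3% and 32.1% and Cacna1c at 23.2% and 23.4%. Cacna1h took 3.08% and 4.20%, and KO replicate 3 was highest at 6.41%. Of the summed β level, Cacnb2 took 26.0% ± 2.84 in FL and 22.7% ± 1.84 in KO, Cacnb3 took 68.7% ± 2.55 and 70.9% ± 1.81, and Cacnb1 took 5.32% ± 0.416 and 6.47% ± 0.634. For every subunit the shares of the FL and KO mice overlapped. For Cacnb1 they did so through KO replicate 1 alone, at 5.71% against a highest FL share of 5.81%. The other KO mice, at 6.18% or more, lay above every FL mouse. No test was made of the shares.

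Ratios of subunits within a mouse were tested for 4 pairs by an exact two-sided permutation test over the 10 mice, in which p cannot go below 0.00794. None passed, and values are differences in log2((FPKM + 1)/(FPKM + 1)), KO minus FL. Cacna1d to Cacna1c differed by −0.03 (exact p = 0.667, 0.849 after Benjamini-Hochberg adjustment over the 4) and Cacna1a to Cacna1d also by −0.03 (exact p = 0.849, adjusted 0.849). Cacna2d1 to Cacna1d differed by −0.15 (exact p = 0.0714, adjusted 0.175), and 3 KO mice lay below every FL mouse. Cacnb2 to Cacnb3 differed by −0.22 (exact p = 0.0873, adjusted 0.175), and 1 KO mouse lay below every FL mouse. Without FL replicate 5 the difference for Cacnb2 to Cacnb3 was −0.30 (exact p = 0.00794, adjusted 0.0317).

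**Figure D2:**
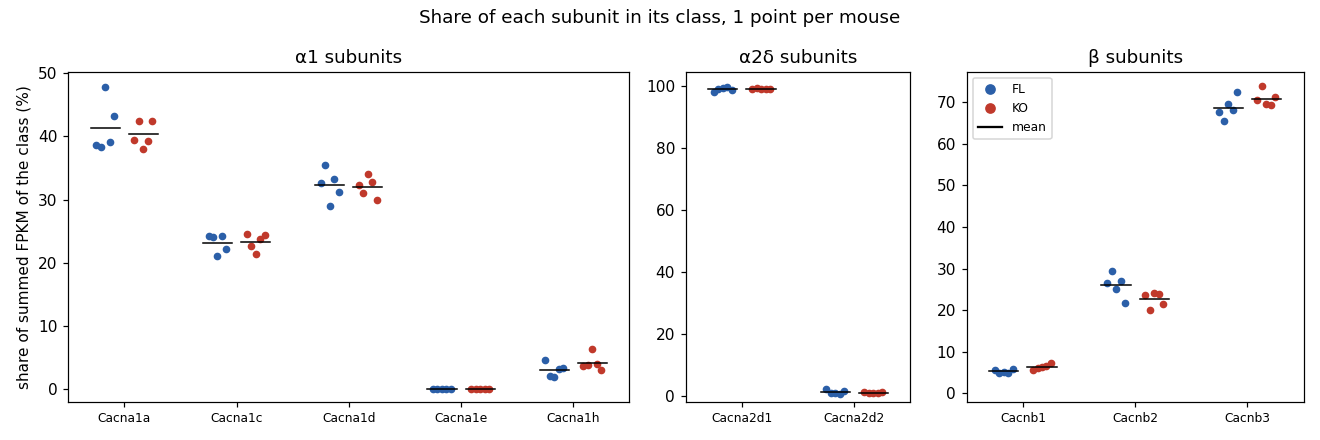
Share of each subunit in the summed FPKM of the listed members of its class (%), with 1 point per mouse for FL (blue) and KO (red) and the mean as a black line. The shares of FL and KO mice overlap for every subunit, for Cacnb1 through KO replicate 1 alone. Cacna2d1 is at 98.8% and 99.0% of the sum of Cacna2d1 and Cacna2d2.

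Of the 4 subunits that were lower, 3 have an annotated start site whose upstream 250 bases hold no annotated exon of the gene. These windows are shown as a description. Those of Cacna1c and Cacna1d precede start sites inside the gene, away from its 5′ end. Both Cacnb2 windows hold exon and are not shown. Windows of subunits that were not lower are not shown either, so no comparison with them is made here. The sequences are from RefSeq (GRCm38.p6), where 14 windows matched 8 of the 10 subunits, and run 5′ to 3′ on the strand of the gene. Capitals mark matches, on either strand, to any of 7 motifs. TGACGTCA is the element bound by the cyclic AMP responsive factor CREB. CACGTG is an E-box, a site of basic helix-loop-helix factors. TAATTA is the core read by many homeodomain proteins, including Pdx1. TGCTGA is the half-site of MAF factors such as MAFA. The remaining ones are common promoter elements: CCAAT, to which the NF-Y complex binds, the TATA box with the letters TATAAA, and the GC box of Sp-family factors, searched as GGGCGG. A match in these letters is a description and not a site in use.
Cacna2d1 chr5:15934441-15934690 plus strand: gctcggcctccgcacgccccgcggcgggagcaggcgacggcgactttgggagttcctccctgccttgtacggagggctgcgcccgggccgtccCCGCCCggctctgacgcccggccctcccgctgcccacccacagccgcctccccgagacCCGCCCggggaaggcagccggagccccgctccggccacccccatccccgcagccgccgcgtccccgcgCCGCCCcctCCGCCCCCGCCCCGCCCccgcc
Cacna1d chr14:30353487-30353736 minus strand: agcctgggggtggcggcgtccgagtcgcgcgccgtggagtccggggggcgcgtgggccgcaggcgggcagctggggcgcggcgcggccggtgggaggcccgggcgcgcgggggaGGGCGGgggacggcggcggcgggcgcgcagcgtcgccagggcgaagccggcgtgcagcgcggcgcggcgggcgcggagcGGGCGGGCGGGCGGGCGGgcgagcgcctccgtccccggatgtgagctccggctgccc
Cacna1c chr6:118757975-118758224 minus strand: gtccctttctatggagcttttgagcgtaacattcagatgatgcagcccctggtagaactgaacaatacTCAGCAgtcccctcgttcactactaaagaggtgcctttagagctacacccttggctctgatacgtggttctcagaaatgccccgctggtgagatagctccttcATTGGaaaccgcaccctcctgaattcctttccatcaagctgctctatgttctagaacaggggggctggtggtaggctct
The Cacna2d1 and Cacna1d windows are GC-rich, at 82.4% and 86.4% GC with 36 and 50 CpG, against medians of 52.4% and 6 over the 32817 windows of the table. GGGCGG matched 6 times in the Cacna2d1 window, each on the strand opposite to the printed one, and 5 times in the Cacna1d window, each as printed, with some matches overlapping in both. GGGCGG was present in 7 of the 14 subunit windows and in 32.7% of all windows. The Cacna1c window shown, at 50.4% GC, holds TGCTGA, found in 16.1% of all windows, and CCAAT, found in 33.8%, both on the strand opposite to the printed one. The contrast in GC is one between these windows and not between the genes: of the other Cacna1c windows, that at chr6:119108496-119108745, which reaches into an exon and is not shown, has 82.8% GC, 48 CpG and 6 matches to GGGCGG, and the other Cacna1d window, at chr14:30491157-30491406 and within exon, has 39.6% GC and 2 CpG. The latter is the 1 window of the 14 that holds the TATA box letters, found in 12.4% of all windows. The other motifs had 0 matches in the 14 windows: TGACGTCA is in 1.55% of all windows, CACGTG in 6.02% and TAATTA in 4.85%. Which start sites the islets used was not measured.

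The channel family has 16 further subunit genes, of which 3 were tested and 1 was lower in KO, where 16.5% of all genes tested were lower. Cacng4, a γ subunit also known for carrying AMPA receptors to the surface, had FPKM of 1.90, 1.71, 1.97, 1.65 and 2.22 in FL and 0.946, 1.33, 1.12, 1.03 and 1.51 in KO. The groups did not overlap (log2 fold change −0.41 ± 0.10 (SE), limma adjusted p = 0.0108). Cacna1b, the N-type pore, averaged 4.36 ± 0.997 FPKM in FL against 4.58 ± 0.336 FPKM in KO (SD, n = 5 each, limma adjusted p = 0.674). Cacna2d4 was at 1.23 ± 0.399 and 1.47 ± 0.364 FPKM (SD, n = 5 each, limma adjusted p = 0.473).

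Of the 13 further subunits under the limit for testing, Cacnb4, the remaining β subunit, stood apart and is named after its values were seen. Its FPKM were 0.0327, 0.0285, 0.0166, 0.0431 and 0.0206 in FL and 1.34, 0.314, 0.140, 0.972 and 1.07 in KO. Every KO mouse was above every FL mouse, and the KO mice spread over a wide range. Of all genes tested, a set that leaves out Cacnb4, 6.67% did not overlap with KO higher. The KO mean was 27.1-fold the FL mean. The FL values are worth 5.54 to 12.2 reads a library and the KO values 42.6 to 440 reads, if reads spread over all annotated exons. With no filter on low values the log2 fold change was 0.73 ± 0.18 (SE, limma adjusted p = 0.0299). Cacnb4 was picked by these same values, so this p-value is no separate support. In KO the mean of Cacnb4 was 0.767 ± 0.515 FPKM (SD, n = 5), far under the means of Cacnb3 and Cacnb2 and under that of Cacnb1.

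Of 21 proteins that bind or regulate the channels, 14 were tested, 2 were higher and 2 were lower in KO, where 25.5% of all genes tested passed in either direction. Of the 2 that were higher, Ahnak was tested only because its KO mean reached 1 FPKM, so its count is a description and nothing is read from it against that share. Gem, a small GTPase of the RGK family that binds β subunits and lowers calcium current, had FPKM of 3.39, 3.23, 3.65, 3.96 and 3.73 in FL and 5.998, 7.30, 7.35, 6.65 and 7.58 in KO. The groups did not overlap, and the mean rose from 3.59 ± 0.286 to 6.97 ± 0.645 FPKM (SD, n = 5 each). The log2 fold change was 0.79 ± 0.07 (SE, limma adjusted p = 2.15e-05). Ahnak, a very large scaffold protein that binds β subunits and is known in many cell types, had FPKM of 0.953, 1.03, 0.960, 0.861 and 0.812 in FL and 4.18, 4.11, 3.87, 3.10 and 4.52 in KO. The groups did not overlap, and the FL mean of 0.923 FPKM was under the limit for testing (log2 fold change 1.36 ± 0.09 (SE), limma adjusted p = 1.76e-06).

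Tspoap1 and Erc2 were the 2 lower genes. Tspoap1, a RIM-binding protein listed as Bzrap1, had FPKM of 1.81, 1.57, 2.67, 2.46 and 2.68 in FL and 0.873, 0.908, 2.07, 0.646 and 1.32 in KO. KO replicate 3 lay within the FL range (log2 fold change −0.60 ± 0.17 (SE), limma adjusted p = 0.0274). Erc2, a protein of the active zone, had FPKM of 2.53, 2.78, 2.65, 2.42 and 2.81 in FL and 2.26, 1.82, 2.40, 2.15 and 1.97 in KO (log2 fold change −0.22 ± 0.07 (SE), limma adjusted p = 0.0419). Its groups did not overlap, but the highest KO mouse, at 2.40 FPKM, lay just under the lowest FL mouse, at 2.42 FPKM. Both calls were lost under some settings, Tspoap1 in 7 (adjusted p up to 0.0664) and Erc2 in 13 (adjusted p up to 0.121). Among these, Tspoap1 did not pass without FL replicate 3, 4 or 5 or KO replicate 1, 2 or 4, and Erc2 without FL replicate 1, 2, 3 or 5 or KO replicate 1, 2, 4 or 5. The other 10 did not pass, among them Rem2 of the RGK family (limma adjusted p = 0.166) and the calcium-binding protein gene Cabp1 (0.077). Genes of the same kind as Tspoap1 and Erc2 were among them too: Rimbp2, Rims2 and Erc1 had log2 fold changes of −0.13, −0.09 and 0.01 (limma adjusted p = 0.289, 0.428 and 0.919).

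**Figure D3:**
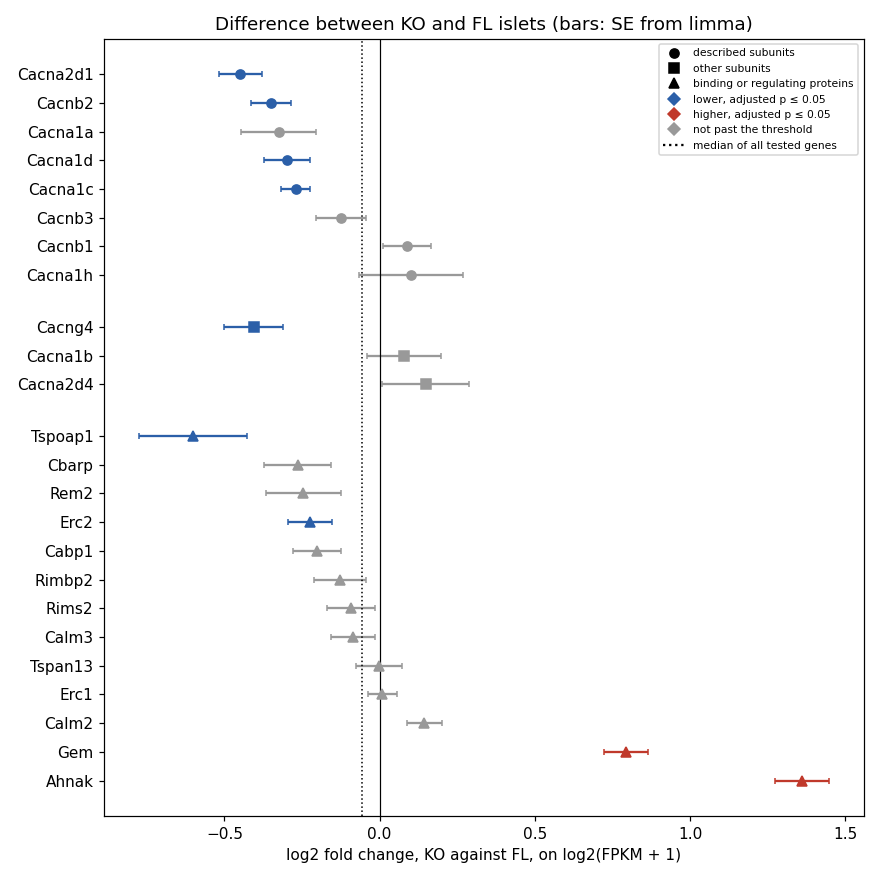
Log2 fold change of KO against FL on log2(FPKM + 1), with its SE, for the 8 subunits tested (circles), 3 further subunits (squares) and 13 of the 14 binding or regulating proteins tested (triangles). Blue marks lower and red higher at an adjusted p of at most 0.05, grey the rest, and the dotted line the median of all genes tested at −0.06. Gem at 0.79 and Ahnak at 1.36 lie apart on the right, and Cacna2d1 at −0.45 is the lowest of the 8.

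**Figure D4:**
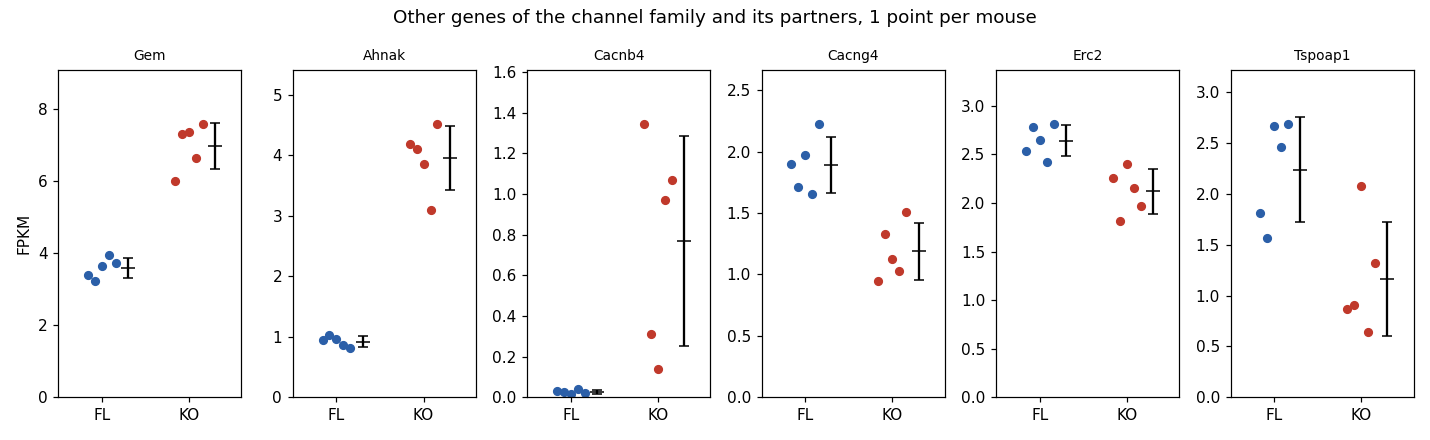
FPKM of Gem, Ahnak, Cacnb4, Cacng4, Erc2 and Tspoap1, with 1 point per mouse for FL (blue) and KO (red) and the mean with SD in black. Every vertical axis starts at 0 and has its own range. KO values of Cacnb4 run from 0.140 to 1.34 FPKM, above all FL values.

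Some markers of islet cell types differed between the groups as well, where 16.5% of all genes tested were lower in KO and 9.05% were higher. The lists are short, so a count of 1 in a list is a description and is not read against these shares. Of 9 β-cell markers, Ins1, Ins2 and Iapp are listed at 0 in all 10 libraries, 6 were tested and 5 were lower in KO, and their summed level ran from 2195 to 2744 FPKM in FL and from 1457 to 2049 FPKM in KO. Of 6 α-cell markers, Gcg is listed at 0, 5 were tested and 2 were lower (434.6 to 650.4 FPKM in FL, 288.5 to 429.4 in KO). Of 4 δ-cell markers 1 was lower (4960 to 5852 and 3993 to 5339 FPKM). Of 4 neural markers only Tubb3 was tested, and it was lower. It makes up nearly all of the summed level (21.8 to 26.1 and 15.4 to 20.1 FPKM), and the values of the other 3 overlapped. Ppy, of PP cells, did not pass (2811 to 16920 and 8815 to 12870 FPKM). Some markers of cells around the endocrine cells were higher in KO: 3 of 5 endothelial (144.1 to 167.1 and 160.4 to 223.4 FPKM), 2 of 2 tested mural of a list of 6 (11.3 to 15.3 and 15.3 to 21.3), 3 of 3 tested fibroblast of a list of 4 (4.25 to 7.81 and 7.94 to 12.8), 1 of 3 macrophage (23.8 to 29.2 and 37.0 to 43.4) and 1 of 3 tested duct of a list of 4 (163.6 to 196.9 and 144.2 to 309.1). The macrophage sum is mostly Cd68, the 1 that passed, while Adgre1 and Csf1r did not (limma adjusted p = 0.101 and 0.366). The duct marker that passed was tested only because its KO mean reached 1 FPKM, so nothing is read from its count. Nearly all of the duct sum is Krt19 and Spp1, which did not pass (limma adjusted p = 0.785 and 0.116). None of 5 acinar markers passed (3658 to 9694 and 2369 to 18080 FPKM). The median log2 fold change was −0.65 over the β-cell markers tested, against −0.28 over the channel subunits. The part of these shifts in the values of the subunits, Cacnb4, Gem and Ahnak was not tested.

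Finally, for the most abundant subunit of each class, the genes whose values ran closest to it over the 10 libraries were listed, by the root mean square difference in log2(FPKM + 1) after each gene's own mean was taken off. The measure includes the gap between FL and KO and grows with a gene's own spread, so neither the direction of the genes it finds nor its size is compared between subunits. For Cacna2d1 these were Vps37a (0.0445), Efcab1 (0.0525) and Hist2h2be (0.0532). For Cacna1a they were Klc2 (0.0903), Bahcc1 (0.103) and Synj1 (0.106). For Cacnb3 the nearest were Ctbp1 (0.0422), Psmd11 (0.0425) and Mrpl38 (0.043).

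Across 22 other settings (the 1.5-fold requirement aside), including 4 rescalings, other pseudocounts and each mouse left out in turn, Cacna1c, Cacna1d, Cacna2d1 and Cacnb2 each kept their direction and passed. Their largest adjusted p-values were 0.0152, 0.0374, 0.00662 and 0.00899. The smallest log2 falls were −0.22 for Cacna1c, −0.25 for Cacna1d, −0.39 for Cacna2d1 and −0.29 for Cacnb2. Exons of Cacna1a, Cacna1d, Cacna1h, Cacna2d2, Cacnb1 and Cacnb2 overlap those of another annotated gene (Gm16183, Chdh, Tpsg1, Gm17141, Gm11629, and Gm10848, Gm10849 and Gm13269, respectively), and whether reads were counted by strand is not given in the sources used here.

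**Figure D5:**
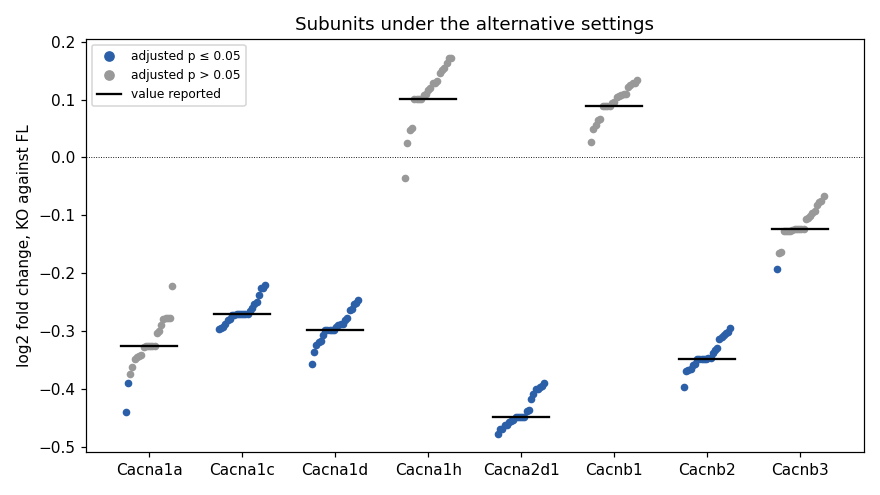
Log2 fold change of KO against FL for the 8 subunits tested, with 1 point per alternative setting in order of value and the reported value as a black line. Blue points have an adjusted p of at most 0.05. All points of Cacna1c, Cacna1d, Cacna2d1 and Cacnb2 are blue and below 0, and a point of Cacna1h, at −0.03, crosses it.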

How the data were processed

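Islet RNA of 5 FL and 5 KO mice was made into poly(A) TruSeq stranded libraries and sequenced as single 75-nt reads. The authors deposited 1 table of FPKM. The submitters' processing notes name STAR 2.5.2a, Cuffnorm 2.2.1 and GRCm38 (mm10), while the annotation is not given in the sources used here. Of its 47340 gene identifiers, 38809 match GENCODE M21 with version and 46927 without, and coordinates come from M21. FPKM hold no counts, so no counting interval is given. Depth came from the step of 1 read in single-transcript genes with over 3000 nt of exon, where 88.1 to 96.1% of values lay within 0.1 read of a whole number.

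Genes that averaged 1 FPKM or more in either group were compared with limma 3.58.1 (R 4.3.3, eBayes with trend) on log2(FPKM + 1), with no covariate and Benjamini-Hochberg adjustment. Fold changes on this scale understate those of low genes. Python 3.11.15 gave summaries, and the fit was tested on simulated data. The members and lists were chosen with earlier results of these data known. For 1 tested partner gene, which the counts include, no values are reported here. Named are all members, called genes of the lists, and 3 nearest genes per class, by rule. Genes of the lists that were not called are named beside these outside the rule, with their values known. Alternatives were pseudocounts of 0.1 and 0.01, no filter or 5 FPKM, 4 rescalings (TPM, quantiles, upper quartile and median ratio), other eBayes settings, sample weights, a replicate block, 1.5-fold, and leaving out each mouse.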

Additional observations from a re-analysis of the deposited data

Results flagged for a closer look

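In 3 of 34 groups (17 genes in FL and in KO) 1 mouse stood far from the other 4 by Dixon's test, where chance gives about 1.7. Cacna1h was at 2.82 FPKM in KO replicate 3 against 1.15 to 1.51 FPKM in the other KO mice. Cacnb2 was at 17.5 FPKM in FL replicate 5 against 20.3 to 21.3 FPKM in the other FL mice. Cacnb3 was at 59.4 FPKM in KO replicate 2 against 45.2 to 49.3 FPKM in the other KO mice.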

How the results depend on the processing

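The number of subunits lower in KO was 0 when a change of at least 1.5-fold was required, 5 with sample weights, 4 to 5 with each mouse left out (5 without FL replicate 1 or KO replicate 2), and 4 under the other settings. Of all genes tested, 290 were lower and 349 higher with 1.5-fold required. With no such requirement and each mouse left out in turn, 1589 to 2367 were lower and 936 to 1130 higher. Of the further subunits and partners, the 3 lower became 1 with no filter, 0 at a mean of 5 FPKM, 5 with sample weights, 1 with 1.5-fold required and 1 to 3 with each mouse left out (1 without FL replicate 3 or 5 or KO replicate 1 or 4), and the 2 higher became 1 at a mean of 5 FPKM, 4 as TPM and 2 to 3 with each mouse left out. The Cacna1h difference was −0.035 without KO replicate 3 (up to 0.173 over all). The ratio of Cacna1a to Cacna1d turned to 0.060 without FL replicate 3 and 0.012 without KO replicate 3 (−0.086 to 0.060 over all), that of Cacna1d to Cacna1c to 0.0099 without KO replicate 5 (−0.077 to 0.0099), and that of Cacnb2 to Cacnb3 ran from −0.30 to −0.16. The share of Cacna1e differed by −0.0167 percentage points after quantile normalization and by 0.00307 as deposited. The causes were not tested. Same-numbered FL and KO mice did not deviate together (correlations from −0.102 to 0.00305, and 0 of 5 FL mice correlated best with their own number). With the replicate number as a block, 1494 genes were lower and 874 higher, 4 subunits were still lower, and Erc2 lost its call (adjusted p = 0.121). Depth limits Cacna1e, at 1.91 to 16.2 reads a library.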
